A study of Homo sapiens with 24 samples.

Results

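The anaphase promoting complex was followed here through the mRNAs of 10 of its subunits: ANAPC1, ANAPC2, ANAPC4, ANAPC5, ANAPC7, ANAPC10, ANAPC11, CDC16, CDC23 and CDC27. They are the rows of the count table whose Ensembl identifiers map to these symbols, 10 of 61853 rows, and all 10 passed the filter on low counts. The data were 24 ribosomal RNA depleted libraries of cytoplasmic RNA from 293T, a human embryonic kidney cell line. Per the labels, every group carried a knockdown of DIS3, an RNA-degrading nuclease, by the short hairpin RNA DIS3-sh2, and was rescued with either DIS3 WT or the mutant DIS3 D146N. The RNA was taken from a sucrose density gradient, which sorts particles by how far they sediment, at fractions 3, 4, 7 and 8. This gave 8 groups of genotype and fraction with 3 replicates each, and the comparison of interest was whether ANAPC2 is spread over the fractions as the other subunits are. The labels do not say whether a rescue line was 1 clone, and no group without the knockdown was analysed here. The members were selected on the complex they belong to and on 1 measured value: ANAPC2 was chosen by its low counts in WT fractions 7 and 8, so the contrast between the WT fractions is a description with no test, and so is the value of ANAPC2 in every comparison that uses WT libraries.

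The anaphase promoting complex is a large ubiquitin ligase that marks cyclins, securin and other proteins for destruction so that a dividing cell can separate its chromosomes and leave mitosis. ANAPC2 is its cullin subunit and ANAPC11 its RING subunit, and together they form the catalytic core that binds the ubiquitin-conjugating enzyme. ANAPC10 helps to bind substrates, ANAPC1, ANAPC4 and ANAPC5 build the platform, and CDC16, CDC23, CDC27 and ANAPC7 are tetratricopeptide repeat proteins that form the arm where coactivators dock.

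Library totals ran from 21.2 to 32.99 M (mega) counts. Levels below are CPM, the count scaled to the library total, and fold changes are log2 differences from edgeR after TMM normalization, which sets each gene against the bulk of genes. The choice of scale carried much weight, because TMM factors ran from 0.349 to 2.83: the median gene changed by -0.18 between WT fractions 7 and 8 and WT fractions 3 and 4 after TMM, but by -2.83 on library totals, and by 0.10 and 3.00 in D146N. After TMM, 34.6% of genes tested were higher and 39.3% lower in WT fractions 7 and 8, whereas on library totals 7.65% were higher and 83.6% lower. The 2 genotypes ran in opposite directions along the fraction numbers, and WT fractions 3 and 4 were nearer to D146N fractions 7 and 8, with 17.3% of genes called in either direction, than to the D146N fractions of the same number, with 49.7% called in fraction 3 and 48.5% in fraction 4. A difference between the genotypes and a difference in how the fractions were numbered or handled cannot be told apart here. DIS3 itself averaged 98.4, 95.1, 4.93 and 5.88 CPM in WT fractions 3, 4, 7 and 8 and 8.59, 9.13, 101 and 97.6 CPM in the D146N fractions, a count that may hold both endogenous and rescue transcripts. WT fraction 8 replicate 3 stood apart from its group, with a chi-square per degree of freedom of 134 and 137 against replicates 1 and 2, where other replicate pairs had 1.83 to 5.74. Of genes that 293T cells express, XRCC5, VIM, KRT8 and KRT18 averaged at least 1.3 CPM in every group. NES ran from 0.171 to 6.73 CPM over the groups, so it was near the floor in some. CD3E and MYH2 were at 0, and PTPRC, DCN, ACTA1, HBB, SNAP25 and RBFOX3 did not exceed 0.964 CPM in any group. COL1A1 reached 9.93 CPM. In bulk libraries a lower share does not tell fewer cells from less RNA per cell. CPM gives the share of an mRNA within a fraction and does not tell how much of it lay there.

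ANAPC2 (ENSG00000176248.9), the cullin of the catalytic core, had the widest spread over the groups of the 10 members. The 3 libraries of WT fraction 3 read 143, 152 and 133 CPM, and those of fraction 4 read 140, 132 and 147 CPM. WT fraction 7 read 1.03, 1.15 and 1.60 CPM, and fraction 8 read 1.20, 0.82 and 1.89 CPM. The WT libraries thus formed a high and a low set that did not overlap, and each low value rested on only 27 to 62.3 counts. The D146N libraries read 9.71, 9.46 and 8.14 CPM for fraction 3, then 7.97, 9.53 and 9.50 CPM for fraction 4. D146N fraction 7 read 110, 117 and 122 CPM, and fraction 8 read 120, 117 and 126 CPM. In D146N, too, the pairs of fractions did not overlap, but the high pair was the other one. In order of mean level (± SD, n = 3), the groups were WT fraction 3 (143 ± 9.48), WT fraction 4 (140 ± 7.68), D146N fraction 8 (121 ± 5.01), D146N fraction 7 (116 ± 5.90), D146N fraction 3 (9.10 ± 0.841), D146N fraction 4 (9.0 ± 0.893), WT fraction 8 (1.304 ± 0.541) and WT fraction 7 (1.26 ± 0.299). Neighbouring fractions of 1 genotype overlapped in this order, and the 4 pairs of fractions did not. The mean over WT fractions 3 and 4 was 110-fold that over WT fractions 7 and 8, the mean over D146N fractions 7 and 8 was 13.1-fold that over D146N fractions 3 and 4, and the low fractions of D146N held 7.06-fold the CPM of the low fractions of WT.

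ANAPC2 lies on the minus strand of chromosome 9 at 137174784 to 137188560 (hg38). Its next neighbour, SSNA1, which codes for a small centrosomal protein, begins 116 bases beyond the end of that span, so that 115 bases lie between the 2 annotated genes. They are shown because the mRNAs on either side had opposite signs between the fractions after TMM, in D146N on that scale only. Whether these bases bear on the place of either mRNA in the gradient was not tested. The run comes from the RefSeq promoter table for GRCh38.p14 and is read on the minus strand, at chr9:137188561-137188675. Capitals mark CGTCA, the other strand of TGACG, the core letters of the cyclic AMP response element.

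ANAPC2 upstream: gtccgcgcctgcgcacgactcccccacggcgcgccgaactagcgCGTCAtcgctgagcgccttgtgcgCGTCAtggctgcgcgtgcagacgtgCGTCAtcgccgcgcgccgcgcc

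The run holds 24 CG dinucleotides, is 74.8% G or C, and has 3 matches to TGACG or CGTCA. Of 35116 promoter windows of the same length, 12.9% hold at least 1. The share with 3 matches, or among windows as rich in CG, is not given. The run has no match to GGGCGG or CCGCCC, which 33.4% of those windows hold, or to CCAAT or ATTGG, which 19.9% hold. SSNA1 averaged 16.9 CPM in WT fractions 3 and 4, 22.0 in WT fractions 7 and 8, 14.7 in D146N fractions 3 and 4 and 22.3 in D146N fractions 7 and 8. Its log2 fold change between fractions 7 and 8 and fractions 3 and 4 was 2.94 in WT and -2.33 in D146N, against -4.12 and 0.78 for ANAPC2. In D146N the sign of SSNA1 turned with the scale, since its CPM was higher in fractions 7 and 8, as that of ANAPC2 was. TPRN, 3059 bases away, had -1.18 and 1.04, and LRRC26 and TMEM210 on the other side averaged at most 0.0875 CPM in any pair of fractions. The annotated span of LOC124902315 overlaps ANAPC2 and had no matching row, and the strand setting of the counting is not given in the sources used here.

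ANAPC11 (ENSG00000141552.18), the RING partner of ANAPC2 in the catalytic core, had a different pattern. WT fraction 3 read 19.3, 18.2 and 19.8 CPM, fraction 4 read 18.7, 26.4 and 18.5, fraction 7 read 37.8, 41.7 and 40.04, and fraction 8 read 38.8, 37.9 and 33.8. D146N fraction 3 read 27.6, 28.0 and 27.9 CPM, fraction 4 read 25.6, 27.0 and 26.8, fraction 7 read 24.4, 26.6 and 25.8, and fraction 8 read 21.6, 27.0 and 27.3. Its share of the library was therefore higher in WT fractions 7 and 8 than in WT fractions 3 and 4, with no overlap, and nearly level in D146N, where the 2 sides overlapped. The 2 mRNAs of the catalytic core were thus distributed unlike each other in both genotypes. Its span on chromosome 17 (81890790 to 81900533, plus strand) overlaps that of ALYREF on the other strand.

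ANAPC10 (ENSG00000164162.14), which helps to bind substrates, also kept its share of the library far more evenly than ANAPC2. WT fraction 3 read 5.34, 6.65 and 7.40 CPM, fraction 4 read 7.97, 5.11 and 5.22, fraction 7 read 4.82, 5.98 and 5.95, and fraction 8 read 4.88, 5.36 and 7.13. D146N fraction 3 read 3.66, 3.06 and 3.52 CPM, fraction 4 read 3.54, 4.12 and 4.69, fraction 7 read 7.93, 7.83 and 8.63, and fraction 8 read 7.60, 6.45 and 6.51. The WT fractions overlapped on this scale, and the D146N fractions did not. Its span on chromosome 4 (144994575 to 145098571, minus strand) overlaps the start of ABCE1 on the other strand.

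The 7 platform and arm subunits shared 1 pattern with a smaller amplitude than that of ANAPC2. They lie apart from each other in the genome (hg38): ANAPC1 (ENSG00000153107.13) on chromosome 2 from 111766231 to 111884193, ANAPC4 (ENSG00000053900.11) on chromosome 4 from 25377263 to 25418498, and CDC23 (ENSG00000094880.11) on chromosome 5 from 138187650 to 138213323, where its end overlaps KIF20A. ANAPC5 (ENSG00000089053.13) and ANAPC7 (ENSG00000196510.14) lie on chromosome 12 from 121308245 to 121354209 and from 110372900 to 110403708, CDC16 (ENSG00000130177.16) on chromosome 13 from 114234897 to 114272723, and CDC27 (ENSG00000004897.12) on chromosome 17 from 47117703 to 47189295. ANAPC1, the largest platform subunit, ran from 60.8 to 68.8 CPM over the 6 libraries of WT fractions 3 and 4 and from 6.73 to 8.57 CPM over WT fractions 7 and 8. It ran from 6.55 to 8.45 CPM over D146N fractions 3 and 4 and from 56.9 to 69.4 CPM over D146N fractions 7 and 8. The high sets of the 2 genotypes overlapped for ANAPC1, and so did the low sets. CDC27, an arm subunit, likewise ran from 62.8 to 69.4 and from 5.69 to 7.77 CPM in the WT pairs and from 5.86 to 8.72 and from 58.1 to 69.4 CPM in the D146N pairs. CDC23, also of the arm, ran from 36.2 to 44.5 and from 3.25 to 4.21 CPM in WT and from 3.36 to 7.26 and from 35.6 to 40.4 CPM in D146N. Across ANAPC1, ANAPC4, ANAPC5, ANAPC7, CDC16, CDC23 and CDC27, the mean over WT fractions 3 and 4 was 8.20-fold (ANAPC4) to 10.9-fold (CDC23) that over WT fractions 7 and 8. The mean over D146N fractions 7 and 8 was 7.25-fold (ANAPC4) to 9.65-fold (ANAPC7) that over D146N fractions 3 and 4. As log2 fold changes on library totals, fractions 7 and 8 against 3 and 4, the 7 lay between -3.45 and -3.02 in WT. In D146N they lay between 2.86 and 3.27. The median gene had -2.83 and 3.00 on that scale, so the pattern is near that of the bulk of genes and not particular to these 7. ANAPC4 rested on 22.0 to 58.0 counts per library in the low fractions, about as few as ANAPC2 in WT. ANAPC1 shares sequence with 7 rows named as ANAPC1 pseudogenes, which held 16.5% of their joint counts, so its level is uncertain; with the counts of ANAPC1P1 to ANAPC1P6 added, its fraction contrasts were -0.46 in WT and 0.17 in D146N.

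**Figure D1:**
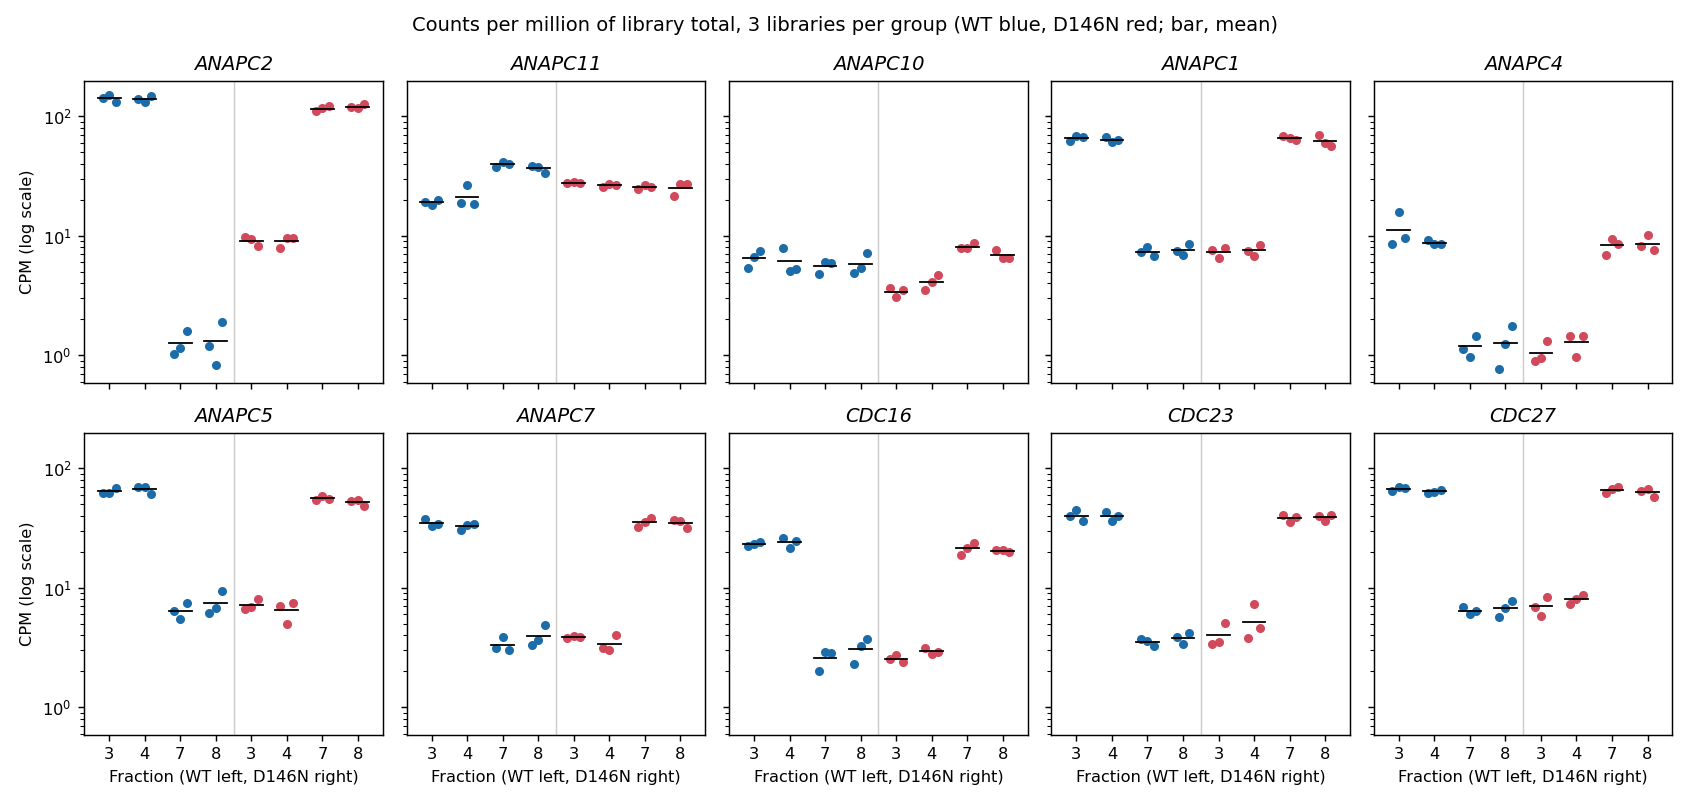
CPM, counts scaled to the library total (log scale), of the 10 subunit mRNAs in each library, by fraction, with WT in blue, D146N in red and a bar at the mean of 3. ANAPC2 ran from 0.82 to 152 CPM, ANAPC11 and ANAPC10 stayed comparatively level, and the other 7 members formed a high and a low set in both genotypes.

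Between WT fractions 7 and 8 and WT fractions 3 and 4, the contrast from which ANAPC2 was chosen, ANAPC2 had a log2 fold change of -4.12 (SE 0.09), and 0.619% of the 18907 genes tested had a lower value. The other members are given as a description too. The 7 platform and arm mRNAs lay between -0.77 (CDC23, SE 0.12) and -0.36 (ANAPC4, SE 0.16), with ANAPC1 at -0.44, CDC16 at -0.39, ANAPC5 at -0.57, ANAPC7 at -0.55 and CDC27 at -0.64. They lay below the median of all genes, -0.18, with 30.5% to 44.2% of genes lower. ANAPC11 had 3.63 (SE 0.10) and ANAPC10 had 2.53 (SE 0.11), with 94.5% and 87.6% of genes lower. On library totals ANAPC2 had -6.78, ANAPC11 0.93 and ANAPC10 -0.14, so the sign for ANAPC10 turned with the scale. Of the 9 members other than ANAPC2, 2 were higher and 7 lower by an adjusted p under 0.05, where 34.6% and 39.3% of all genes were, and nothing is read from these counts.

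**Figure D2:**
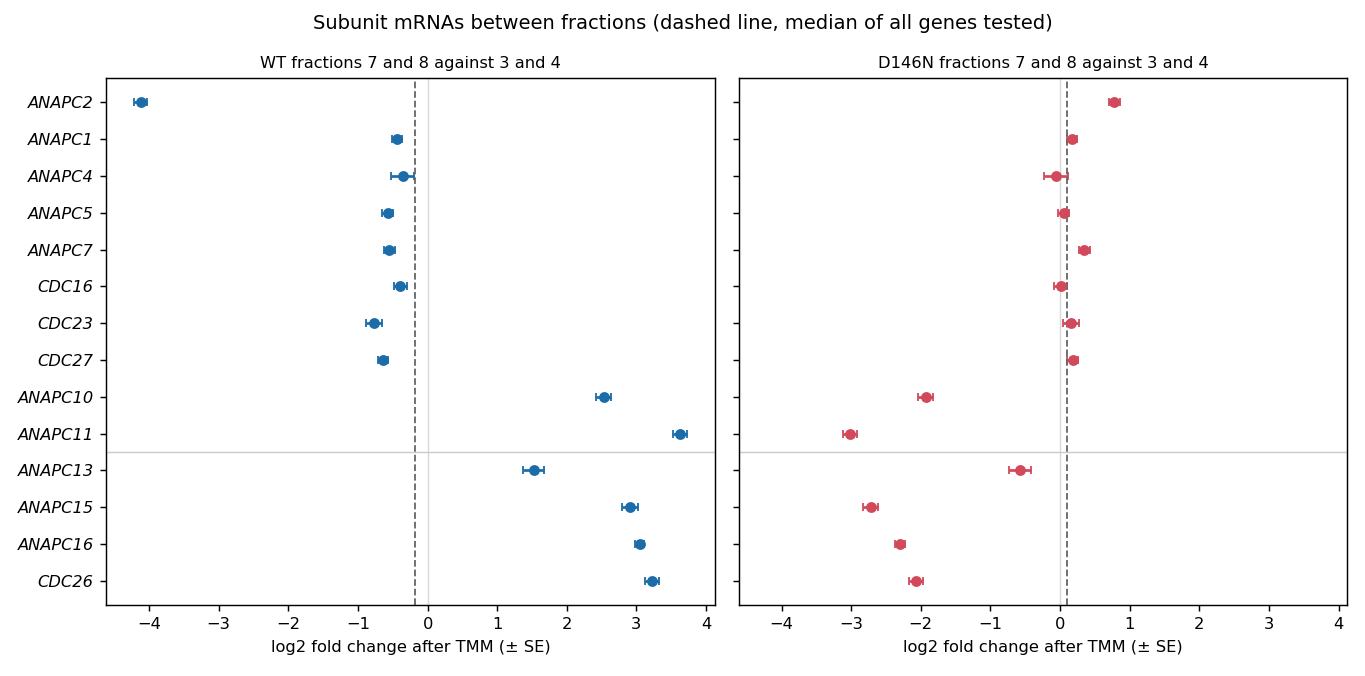
Log2 fold change after TMM (± SE) of fractions 7 and 8 against fractions 3 and 4 for the 10 members and, under the grey line, 4 other subunits, in WT (left) and D146N (right), with a dashed line at the median of all genes tested. ANAPC2 lay at -4.12 in WT and 0.78 in D146N, while the 6 lowest rows lay above 0 in WT and below 0 in D146N, an order that turned on library totals for ANAPC10 and ANAPC13 in WT and for ANAPC10, ANAPC13, ANAPC15, ANAPC16 and CDC26 in D146N.

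ANAPC2 was chosen by its WT values, but with earlier results of these data known. In the D146N libraries its sign was the opposite. ANAPC2 was higher in D146N fractions 7 and 8 than in D146N fractions 3 and 4, with a log2 fold change of 0.78 (SE 0.08) and an adjusted p of 3.44e-11 by edgeR's quasi-likelihood test with Benjamini-Hochberg adjustment. It was the highest of the 10 members, yet 85.2% of the genes tested had a lower value, so its place among all genes was far less extreme than in WT. ANAPC7 (0.35, SE 0.08), CDC27 (0.18, SE 0.07) and ANAPC1 (0.17, SE 0.07) also passed as higher, with adjusted p of 0.000491, 0.0365 and 0.0310 by edgeR. CDC23 (0.16), ANAPC5 (0.05), CDC16 (0.01) and ANAPC4 (-0.06) did not pass. ANAPC11 fell by 3.02 (SE 0.10, adjusted p 5.75e-20) and ANAPC10 fell by 1.93 (SE 0.11, adjusted p 2.64e-17) relative to the bulk of genes by edgeR, whereas on library totals they had -0.09 and 0.99. In all, 4 members were higher and 2 lower, where 29.9% and 30.3% of all genes were, so the shares of the members were near the background. On library totals 9 were higher and none lower, where 88.9% and 4.08% of all genes were. On totals over protein-coding genes 8 were higher and 2 lower, a count from which nothing is read, as the share of all genes is not given. The calls near 0 turned on single libraries: those of ANAPC1 and CDC27 were lost without D146N fraction 3 replicate 2 (adjusted p 0.0696 and 0.107), that of CDC27 also without D146N fraction 4 replicate 1 (0.0838), and ANAPC5 and CDC23 passed when any 1 of 12 libraries (ANAPC5) or of 14 libraries (CDC23) was left out. The call of ANAPC2 held with each of the 24 libraries left out in turn, with 0.76 to 0.95.

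**Figure D3:**
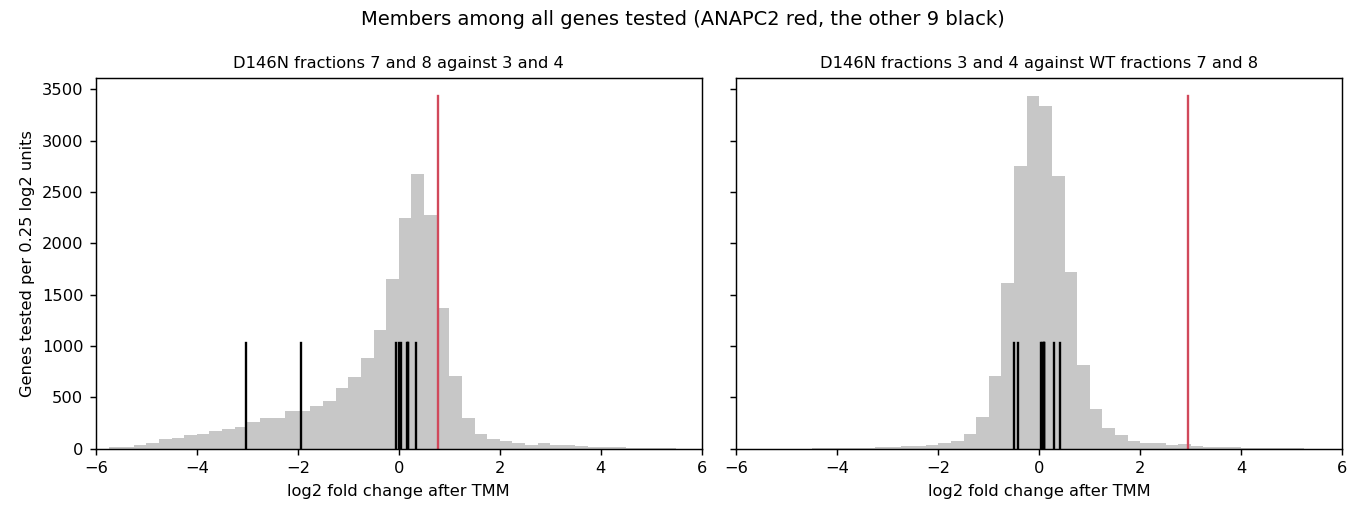
Number of genes tested per 0.25 log2 units (grey) by log2 fold change after TMM, for D146N fractions 7 and 8 against 3 and 4 (left) and D146N fractions 3 and 4 against WT fractions 7 and 8 (right), with ANAPC2 as a red line and the other 9 members as black lines. ANAPC2 lay at 0.78 inside the main body of genes on the left and at 2.94 in the upper tail on the right, while the other 9 members lay between -0.50 and 0.41 on the right.

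The contrast between fractions differed between the genotypes for most members, as it did for 14574 of the 18907 genes tested. Written as the D146N contrast minus the WT contrast, ANAPC2 had 4.90 (SE 0.12), a description since it uses the WT libraries, with 98.5% of genes lower. ANAPC11 had -6.65 (SE 0.15, adjusted p 7.70e-25) and ANAPC10 -4.46 (SE 0.15, adjusted p 1.94e-24) by edgeR. On library totals ANAPC11 had only -1.02, and ANAPC10 had 1.14. Of the 7 platform and arm mRNAs, CDC23 (0.93), ANAPC7 (0.90), CDC27 (0.82), ANAPC5 (0.63), ANAPC1 (0.61) and CDC16 (0.40) passed, with adjusted p from 1.06e-08 to 0.0070 by edgeR, and ANAPC4 (0.30, adjusted p 0.247) did not. Of the 9 members other than ANAPC2, 6 were higher and 2 lower, where 41.7% and 35.4% of all genes were.

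Compared within a fraction of the same number, ANAPC2 had -1.19 (SE 0.11) for fraction 3, -1.18 (SE 0.11) for fraction 4, 3.59 (SE 0.13) for fraction 7 and 3.85 (SE 0.13) for fraction 8, as D146N minus WT and as a description. ANAPC11 had the opposite order of signs, with 3.32, 3.10, -3.58 and -3.28, against 0.54, 0.32, -0.64 and -0.54 on library totals. ANAPC10 had 1.85, 2.21, -2.40 and -2.45, and on library totals it turned sign in all 4 fractions (-0.92, -0.57, 0.54 and 0.25). The 7 platform and arm mRNAs lay between -0.64 and 0.01 in fractions 3 and 4 and between -0.13 and 0.65 in fractions 7 and 8. Of the 9 members other than ANAPC2, 2 were higher and 7 lower in fraction 3 by edgeR, where 25.8% and 23.9% of all genes were. In fraction 4, 2 were higher and 3 lower, against 25.7% and 22.8% of all genes. In fraction 7, 4 were higher and 2 lower, against 32.4% and 31.1%, and in fraction 8, 4 were higher and 2 lower, against 32.5% and 32.6%. These contrasts and those between fractions use the same libraries.

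Groups of opposite fraction labels were also set side by side. Between D146N fractions 3 and 4 and WT fractions 7 and 8, the median gene differed by 0.01 after TMM and by -0.09 on library totals. ANAPC2 had 2.94 (SE 0.10) after TMM and 2.82 on library totals, with 99.3% of genes lower, a description, since the low counts in WT fractions 7 and 8 that chose it enter this comparison. CDC23 (0.41, adjusted p 0.0164) and CDC27 (0.29, adjusted p 0.0060) were higher by edgeR, ANAPC10 (-0.50, adjusted p 0.00049) and ANAPC11 (-0.41, adjusted p 0.0014) were lower, and ANAPC1, ANAPC4, ANAPC5, ANAPC7 and CDC16 lay between 0.04 and 0.10 and did not pass. Of the 9 members other than ANAPC2, 2 were higher and 2 lower, where 17.1% and 12.1% of all genes were. CDC23 did not pass without D146N fraction 3 replicate 3 or without D146N fraction 4 replicate 2 (adjusted p 0.0750 and 0.0881), and on library totals neither CDC23 nor CDC27 passed. On totals over protein-coding genes 7 of the 10 members, with ANAPC2 among the 10, were higher and none lower. The share of all genes on that scale is not given here, so nothing is read from this count. Without WT fraction 8 replicate 3, the library that stood apart, ANAPC2 had 3.02 in this contrast and -4.22 between the WT fractions.

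Between D146N fractions 7 and 8 and WT fractions 3 and 4, the other such pair, the values of the members lay between -0.43 and 0.19. ANAPC2 had -0.40 (SE 0.07) as a description, and its D146N mean was 0.839-fold its WT mean in CPM. ANAPC5 (-0.43), CDC16 (-0.33) and ANAPC4 (-0.38) were called lower by edgeR, with adjusted p of 2.5e-05, 0.0033 and 0.0473. Of the 9 members other than ANAPC2, 3 were lower and none higher, where 10.4% and 6.9% of all genes were. ANAPC11 (0.19) and ANAPC10 (0.10) did not pass. Here ANAPC2 was among its fellow subunits, with ANAPC5 slightly lower. With ANAPC2 included, the count of members called rose from 4 to 7 without WT fraction 8 replicate 3, and the call of ANAPC4 was lost when any of 17 libraries was left out.

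**Figure D4:**
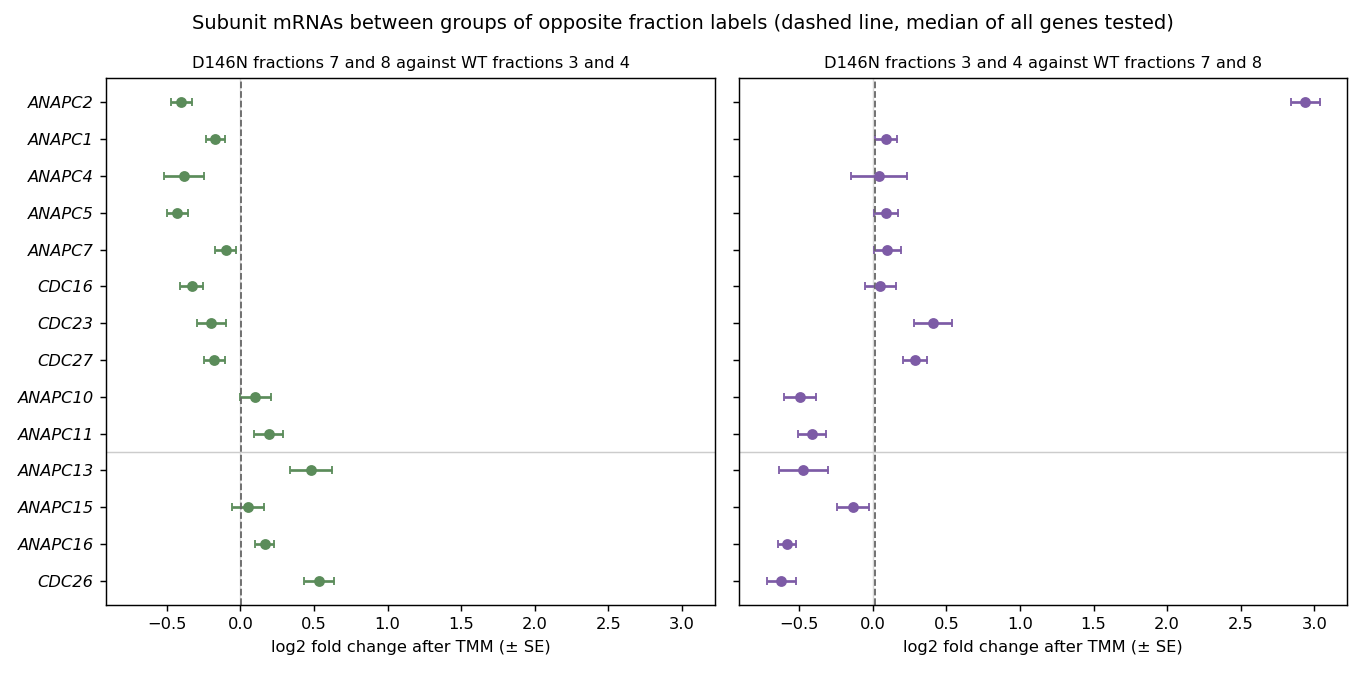
Log2 fold change after TMM (± SE) of the 10 members and, under the grey line, 4 other subunits, for D146N fractions 7 and 8 against WT fractions 3 and 4 (left) and D146N fractions 3 and 4 against WT fractions 7 and 8 (right), with a dashed line at the median of all genes tested. ANAPC2 lay at -0.40 among the other subunits on the left and at 2.94, apart from them, on the right, where the low WT counts that chose it enter.

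A ratio taken inside each library does not depend on the scale between libraries. The log2 ratio of the ANAPC2 count to the geometric mean count of the other 9 members was 2.32 ± 0.10 for WT fraction 3 and 2.34 ± 0.10 for fraction 4 (SD, n = 3). It was -2.04 ± 0.28 for WT fraction 7 and -2.15 ± 0.48 for fraction 8. The D146N values were 0.91 ± 0.25 for fraction 3, 0.80 ± 0.13 for fraction 4, 2.03 ± 0.02 for fraction 7 and 2.15 ± 0.12 for fraction 8. Only changes of this ratio between groups can be read, since the counts are not corrected for transcript length. It differed by -4.42 between the WT pairs of fractions and by 1.23 between the D146N pairs. It was 2.95 higher in D146N fractions 3 and 4 than in WT fractions 7 and 8, and -0.24 apart between D146N fractions 7 and 8 and WT fractions 3 and 4. With ANAPC10 and ANAPC11 taken out of the reference, a choice made after the values were seen, these differences were -3.62, 0.65, 2.82 and -0.15.

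**Figure D5:**
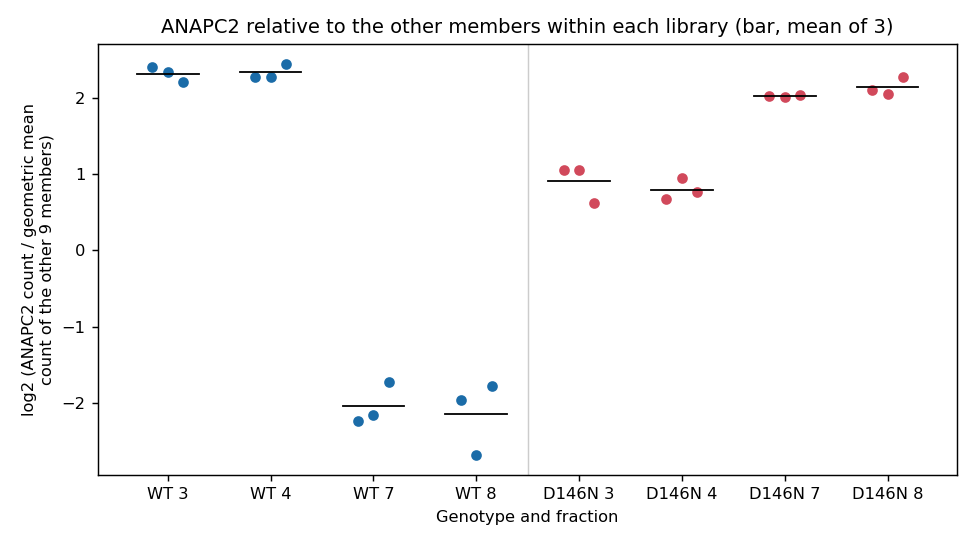
Log2 ratio of the ANAPC2 count to the geometric mean count of the other 9 members in each library (points) with the mean of 3 (bar), by genotype and fraction. The WT libraries of fractions 7 and 8 lay between -2.69 and -1.72, under all others, and the D146N libraries of fractions 3 and 4 lay between 0.63 and 1.06, under the libraries of the 4 high groups.

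No member was called between neighbouring fractions of a genotype. No gene was called by edgeR between WT fractions 4 and 3, WT fractions 8 and 7, D146N fractions 4 and 3 or D146N fractions 8 and 7, with 0% of genes called in each and unadjusted p under 0.05 in 830, 1727, 765 and 653 genes. DESeq2 called 0, 5, 0 and 0 genes. Of the members, 0, 1, 1 and 0 had an unadjusted p under 0.05 by edgeR, and DESeq2 called none. In counts summed over the 4 fractions of each genotype and replicate number, where each fraction weighs by its depth, ANAPC2 had -0.14 (SE 0.04) as D146N minus WT, and -0.05 on library totals, as a description. ANAPC5 (-0.27, adjusted p 0.000112), ANAPC11 (-0.31, adjusted p 0.000453) and CDC16 (-0.19, adjusted p 0.0287) were lower by edgeR, and no member was higher, where 12.5% and 14.9% of the 20562 genes tested were. The call of CDC16 was lost on library totals and protein-coding totals, with no filter, by DESeq2, and without WT replicate 1 or D146N replicate 1, 2 or 3 (adjusted p up to 0.125 with a replicate left out). With ANAPC2 included, the count of members called was 4, and it was 2 without WT replicate 1, D146N replicate 1 or D146N replicate 2.

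The genes whose pattern over the 8 group means was most like that of ANAPC2 were sought by the root mean square difference of centred log2 CPM after TMM, among 3840 genes with a mean of at least 10 CPM on that scale. The nearest was CENPF, a kinetochore protein (0.43), followed by DIAPH1, an actin nucleator (0.44), SPECC1 (0.45), AHNAK, a giant scaffold protein (0.48), and TPR, a nuclear pore protein (0.51). CENPF averaged 538 and 6.01 CPM in WT fractions 3 and 4 and WT fractions 7 and 8, and 28.7 and 257 CPM in D146N fractions 3 and 4 and D146N fractions 7 and 8. ANAPC4, ANAPC10 and CDC16 lay under that minimum and were not compared. Of the members compared, the nearest was CDC23, at 1.36 and rank 1223, and ANAPC11 was at 3.14 and rank 3544. All these points share the same 24 libraries.

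Of the 4 further subunits, ANAPC13, ANAPC15, ANAPC16 and CDC26, all were higher in WT fractions 7 and 8 than in WT fractions 3 and 4 by edgeR after TMM, with 1.52, 2.91, 3.04 and 3.22, and all were lower in D146N, with -0.57, -2.72, -2.30 and -2.06. Of all genes, 34.6% were higher in WT and 30.3% lower in D146N on that scale. These 4 code for small accessory subunits, and like ANAPC10 and ANAPC11 they are among the smallest proteins of the complex, a likeness seen after the values were known. On library totals their WT values were -1.12, 0.24, 0.39 and 0.54 and their D146N values 2.35, 0.21, 0.63 and 0.86, so the direction in D146N, and that of ANAPC13 in WT, held only relative to the bulk of genes. The call of ANAPC13 in D146N was lost when any of 6 libraries was left out (adjusted p up to 0.0889). Between D146N fractions 3 and 4 and WT fractions 7 and 8 they had -0.47, -0.14, -0.58 and -0.62.

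Other genes of the pathway, 27 coactivators, inhibitors and checkpoint genes, ubiquitin-conjugating enzymes and substrates, split in both directions around the bulk of genes. In WT fractions 7 and 8, 8 were higher and 16 lower by edgeR (1 and 25 on library totals), with a median of -0.36, and in D146N 12 were higher and 7 lower (27 and none on library totals), with a median of 0.19. Both coactivators were lower in WT and higher in D146N by edgeR: CDC20 had -1.15 in WT and 0.72 in D146N, and FZR1 had -0.93 and 0.68. UBE2C, the enzyme that starts ubiquitin chains with the complex, had 2.54 and -2.04, against -0.11 and 0.88 on library totals. Among 15 substrates, 5 were higher and 10 lower in WT, where 34.6% and 39.3% of all genes were, and 8 were higher and 4 lower in D146N, where 29.9% and 30.3% were. On library totals 14 of the 15 were lower in WT and all 15 higher in D146N, against 83.6% and 88.9% of all genes. The spindle factor TPX2 had -1.32 and 0.75, the kinase PLK1 had -1.51 and 0.65, and PTTG1, which codes for securin, had 2.93 and -2.37, against 0.24 and 0.56 on library totals. Calls between the WT fractions are descriptions for the further subunits and for these genes too. FBXO43, a meiotic inhibitor of the complex, had the lowest WT value of the list, -2.37, which is how it came to be named. Its call was lost when any of 4 libraries was left out. FBXO43 was near the floor, with means of 0.417 CPM in WT fractions 3 and 4 and 0.0104 CPM in WT fractions 7 and 8.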

How the data were processed

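The members and gene lists were chosen with earlier results of these data known. The deposited table held expected counts per gene, not normalized by the authors, in 61853 Ensembl rows; 73.3% of nonzero values were whole within 0.005, and values were rounded before fitting. Per the submitters' processing notes, the tools were featureCounts 1.5.1, HISAT2 2.1.0, Bowtie2 2.3.5 and SAMtools on hg38; roles and options are not given in the sources used here. Per the labels' protocols, RNA was extracted with TRIzol, depleted with KAPA RiboErase and sequenced on a NovaSeq. Symbols matched 99.9% of rows. edgeR 4.0.16 (limma 3.58.1, R 4.3.3) was fitted to all 24 libraries as 8 group means with TMM, filterByExpr and a robust quasi-likelihood test, with Benjamini-Hochberg adjustment over 18907 genes and a threshold of 0.05; the biological coefficient of variation was 13.8%. The tests were also run on simulated data in which few genes changed. Most genes differed between the WT pairs of fractions here, so that run cannot vouch for the tests on these data. Alternatives were library totals, protein-coding totals, DESeq2 1.42.0 and its size factors, no filter, replicate blocks and leaving out each library. Named genes were all members, further subunits, DIS3, the 3 highest and 3 lowest pathway genes per fraction contrast, the 5 genes most like ANAPC2 and genes within 5000 bases of it; the remaining pathway and marker genes were named after their values were seen. The labels call the replicates biological. Counts without molecular identifiers give counting precision only. RefSeq tables of GRCh38.p14 gave positions and the promoter run.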

Additional observations from a re-analysis of the deposited data

Results flagged for a closer look

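The contrast of fractions 7 and 8 against fractions 3 and 4 differed between the genotypes, by an interaction term in edgeR, for 9 of the 10 members. It also did for 14574 of the 18907 genes tested, so nothing particular to the members is read from this count. As D146N minus WT on the log2 scale after TMM, the difference was 4.90 for ANAPC2, 0.93 for CDC23, 0.90 for ANAPC7, 0.82 for CDC27, 0.63 for ANAPC5, 0.61 for ANAPC1 and 0.40 for CDC16. It was -4.46 for ANAPC10 and -6.65 for ANAPC11. On library totals ANAPC11 had -1.02, and the sign for ANAPC10 turned. The value for ANAPC2 is a description, since the WT libraries were used to choose it, and 41.7% of all genes were higher and 35.4% lower in the same test.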

How the results depend on the processing

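For ANAPC2, direction and call held between the D146N fractions under library totals, protein-coding totals, DESeq2 size factors, DESeq2, no filter, the replicate block and every left-out library. In comparisons that use WT libraries its values are descriptions, although the counts of members called here include it. In the summed counts it had -0.05 on library totals and -0.0032 on protein-coding totals. On library totals 10 members were called within fraction 4, 3 between D146N fractions 3 and 4 and WT fractions 7 and 8, and 2 in the summed counts. On protein-coding totals 10 were called within fraction 4 and 10 between the D146N fractions. The shares of all genes called in these comparisons on these scales are not given, so nothing is read from these counts. Signs turned on library totals for ANAPC10 (-0.14 in WT, 0.99 in D146N, 1.14 for the interaction), ANAPC13 (-1.12 in WT, 2.35 in D146N) and, in D146N, ANAPC4 (2.86), ANAPC15 (0.21), ANAPC16 (0.63), CDC26 (0.86) and PTTG1 (0.56). On protein-coding totals they turned for ANAPC13 (-0.31 in WT, 1.04 in D146N) and ANAPC4 (1.55 in D146N), and with no filter for ANAPC4 (0.058 in D146N). With 1 library left out, ANAPC4 in D146N ran from -0.11 to 0.15, with a turned sign in 13 cases, and CDC16 from -0.00084 to 0.20, in 1. Members called with 1 library left out numbered 9 to 10 between WT fractions and for the interaction, 4 to 8 between D146N fractions, 9 to 10, 6 to 8, 7 to 9 and 7 to 8 within fractions 3, 4, 7 and 8, 3 to 7 between D146N fractions 7 and 8 and WT fractions 3 and 4, 4 to 5 for the other opposite pair and 2 to 5 in the summed counts. The shares of all genes called with a library left out are not given, so nothing is read from these ranges about the members. The ratio of ANAPC2 to the other members was -3.62, 0.65 and -0.15 without ANAPC10 and ANAPC11 in the reference and 0.71 in D146N against their median. Why these values moved was not tested. Within a genotype, deviations of libraries with the same replicate number correlated by -0.0202 to 0.0297, and those with different numbers by -0.0231 to 0.0208. Taken over all genes tested, low counts included, these values cannot show whether libraries of 1 number shared a culture or gradient. No count of members called changed with a replicate block (6 between the D146N fractions). Depth limits ANAPC2 in WT fractions 7 and 8 to 27 to 62.3 counts per library.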

Other observations

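Cullins other than ANAPC2 and the RING partners of cullins gave a comparison within the wider ligase family. RNF7 and RBX1 are small RING proteins that serve the other cullins as ANAPC11 serves ANAPC2. They had 3.90 and 2.95 in WT fractions 7 and 8, as a description. Both were lower in D146N, with -3.57 for RNF7, which was named by its place in both contrasts, and -1.88 for RBX1 (adjusted p 1.31e-12 by edgeR). On library totals RNF7 had 1.22 and -0.64 and RBX1 had 0.24 and 1.05, so the sign for RBX1 in D146N turned with the scale. Of 8 cullins, 2 were higher and 4 lower in WT, where 34.6% and 39.3% of all genes were, and 2 were higher and 1 lower in D146N, where 29.9% and 30.3% were, and nothing particular to cullins is read from these counts. CUL1, the cullin of the SCF ligases, had the lowest WT value, -0.77, and 0.37 in D146N, and CUL5 had the highest WT value, 1.05, and -0.60 in D146N. On library totals all 8 cullins were lower in WT fractions 7 and 8 and higher in D146N fractions 7 and 8. On that scale 83.6% of all genes were lower in WT and 88.9% higher in D146N, so nothing particular to cullins is read from this either.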
